A study of Mus musculus with 2 samples.

Results

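The data describe 45 mouse genes of the nuclear receptor superfamily on a pair of expression arrays. They were chosen by name, as every spot with 1 of the 45 symbols in its gene name field, and Hnf4a was not among them. All 45 were on the array, which held 30153 named genes, and they were read by 72 probes, with 1 probe for 23 genes and several for the other 22. One array held RNA of mature hepatocytes (MHs) taken from normal livers and cleaned by Percoll density centrifugation. Per the study's methods, both the healthy and the injured livers came from Sox9-EGFP mice. The other array held RNA of Sox9+EpCAM- cells, sorted by FACS from Sox9-EGFP mice that had been fed DDC, a collidine compound that blocks heme synthesis and injures the bile ducts and the surrounding liver. In these mice a transgene makes EGFP where the Sox9 gene is active, so that the sort took GFP-bearing cells without EpCAM on their surface. The labels called them Sox9+ hepatocytes, and gave both samples as male. The age and the number of mice behind each array were not given in the sources used here. The study's figure legends give a feeding time for sorted cells, but do not state it separately for the array sample. Each group had 1 array, so that no difference below carries a test or a replicate error, and diet, isolation method and array cannot be told apart.

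Nuclear receptors are transcription factors that mostly carry a DNA-binding domain and a pocket for a small, fat-soluble ligand, such as a steroid, thyroid hormone, retinoic acid, a bile acid, an oxysterol, a fatty acid or heme. Many bind DNA as a pair with a retinoid X receptor, others as a pair of like receptors or alone, and they recruit coactivators or corepressors. In hepatocytes they set the genes for bile acid, lipid, glucose and drug metabolism, and several take part in the circadian clock. A receptor's RNA level does not measure how much ligand it has bound.

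An array of this type gives the brightness of a 60-base probe after labelling with the dye Cy3. For each array the processed intensity was divided by that array's 75th percentile (741 for MHs and 1110 for Sox9+EpCAM- cells), and a difference is the log2 of the scaled Sox9+EpCAM- value over the scaled MH value. A gene's value came from its brightest probe. Where the MH signal was not well above the scanner's background, the difference is a lower bound, set against the lowest signal that was. Of 43020 spots, 27523 stood well above background for MHs and 32158 for Sox9+EpCAM- cells, and none was saturated. The median difference over the 21875 genes with a value was -0.12. All 16 hepatocyte markers were well above background on both arrays, and 11 were at least 2-fold lower in the Sox9+EpCAM- cells (median -1.14, with a summed level of 1791 times the array's 75th percentile in MHs and 858 times in the sorted cells). Sox9 itself was not well above background in MHs (8.52) and read 60.2 in the sorted cells, a difference of at least 1.45-fold. Epcam, whose protein the gate selected against, read 139 and 2770. The signal of Xist went against the labels, being 1940 in the sample of MHs and 16.1, not well above background, in the Sox9+EpCAM- sample. All 4 Y-linked genes read (Ddx3y, Kdm5d, Eif2s3y and Uty) were not well above background in MHs (6.03 to 8.5) and measured 140 to 642 in the sorted cells. The part of sex in the differences below was not tested, and sex and group cannot be told apart.

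Of the 45 receptor genes, 32 passed the background on both arrays, 5 in Sox9+EpCAM- cells alone and 8 on neither array, and 36 had a difference that could be given. Nr1d1, Nr4a1 and Nr4a2 exceeded their MH value by at least 4-fold in Sox9+EpCAM- cells, which is 8.33% of the 36, against 5.98% of all genes with a value. Esr1 and Nr1i3 were at least 4-fold lower, which is 5.56%, against 5.96% of all genes. At 2-fold, 8 receptor genes were higher (22.2%, against 15.2% of all genes) and 9 were lower (25%, against 17.9%), while 18 of those measured on both arrays lay within 2-fold. The remaining gene, Nr2f1, had a lower bound under 2-fold, which does not place it. The shares at 4-fold were thus near those of the whole array, and those at 2-fold exceeded them by a few genes in each direction. The median over the 36 genes was -0.26. Of the 32 receptor genes measured on both arrays, 10 were above 0 and 22 below 0, and with scaling to Gapdh or with quantile normalization these counts became 14 and 18. The sign turned for Rxra and Nr5a2 under both settings, for Rorb and Nr2c1 with Gapdh and for Rora and Esr2 with quantiles, all of them 0.35 or less in size, and for Nr1h2 in the authors' deposited table. The scanner's own error model gave an error of 0.20 to 0.34 on the log2 scale for those 32 differences, which covers the reading of a spot and not the spread between mice. Of the 5 genes past 4-fold, the 4 measured on both arrays stood far outside this reading error, and the spread between animals is not known.

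**Figure D1:**
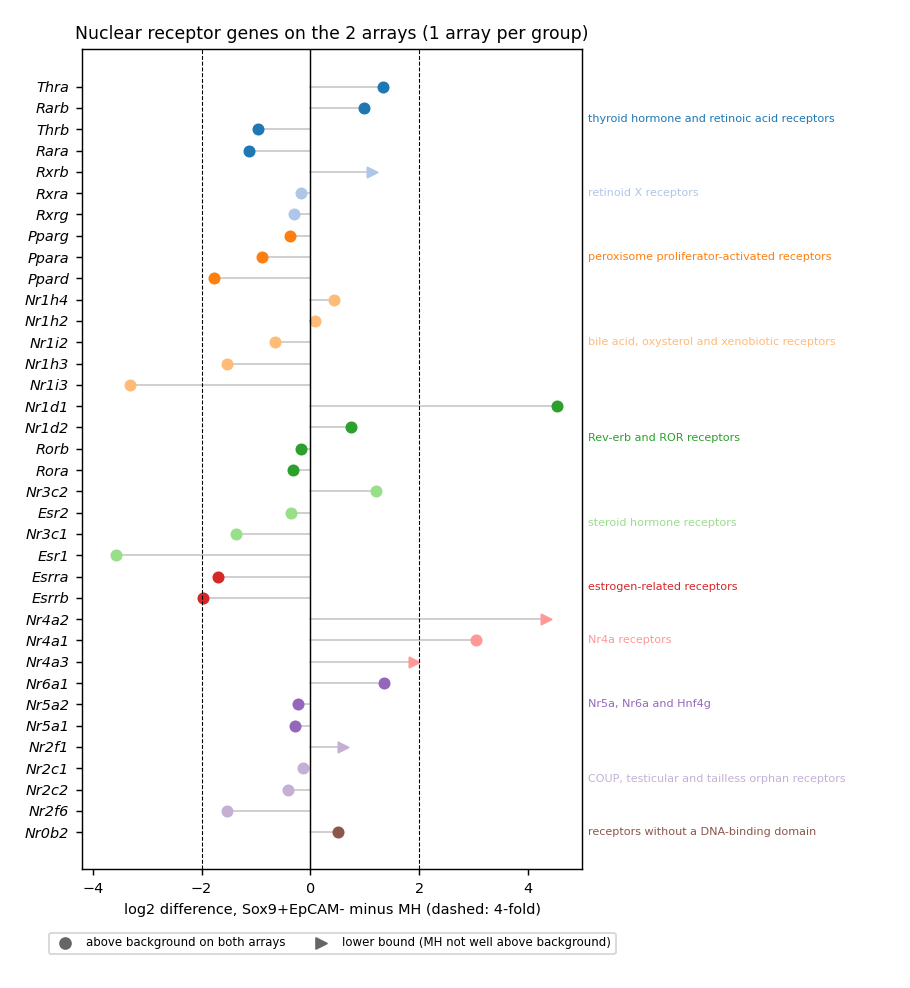
The plot gives the log2 difference between the arrays (horizontal axis, Sox9+EpCAM- minus MH) for the 36 receptor genes with a value, grouped and coloured by receptor class. Circles were measured on both arrays and triangles are lower bounds. Nr1d1 and Nr4a2 lie farthest to the right, and Esr1 and Nr1i3 farthest to the left.

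The promoters of the Nr4a genes are shown because all 3 genes read higher in the Sox9+EpCAM- cells, and that of Nr1i3 because it was 1 of the 2 genes past 4-fold in the other direction. They are the 250 bases before the annotated start from RefSeq, build GRCm38.p6, in the direction of the gene. In the Nr4a promoters the capitals mark TGACG or its reverse complement CGTCA, the core of the cyclic AMP response element, to which CREB and ATF proteins bind. The Nr4a1 stretch is chr15:101266596-101266845 (plus strand), that of Nr4a2 chr2:57124004-57124253 (minus strand) and that of Nr4a3 chr4:48045055-48045304 (plus strand).
Nr4a1: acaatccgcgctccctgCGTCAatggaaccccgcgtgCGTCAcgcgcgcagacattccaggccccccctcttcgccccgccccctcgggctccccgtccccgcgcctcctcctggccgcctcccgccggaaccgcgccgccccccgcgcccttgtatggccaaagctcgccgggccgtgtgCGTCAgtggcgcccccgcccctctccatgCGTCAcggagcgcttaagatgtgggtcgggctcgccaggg
Nr4a2: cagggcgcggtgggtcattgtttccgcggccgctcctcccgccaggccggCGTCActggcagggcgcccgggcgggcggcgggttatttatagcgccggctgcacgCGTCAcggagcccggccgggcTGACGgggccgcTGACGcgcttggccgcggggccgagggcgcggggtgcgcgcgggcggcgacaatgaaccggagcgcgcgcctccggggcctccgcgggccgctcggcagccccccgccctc
Nr4a3: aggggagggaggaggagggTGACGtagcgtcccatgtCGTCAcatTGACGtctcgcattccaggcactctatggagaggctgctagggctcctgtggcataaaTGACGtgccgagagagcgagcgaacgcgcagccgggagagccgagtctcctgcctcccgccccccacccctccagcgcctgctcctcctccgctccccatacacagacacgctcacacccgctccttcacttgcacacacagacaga
Each of these stretches held 4 matches, counted on both strands. The same search over the promoters of 27025 genes found at least 1 match in 19.8% and at least 3 matches in 0.777%. Of the 45 receptor genes, 41 had a promoter in the table, and 13 of those 41 held at least 1 match (Thrb, Rara, Ppara, Rxrb, Nr2c1, Nr2c2, Nr2e1, Esr2, Esrrb and Nr6a1 besides the Nr4a genes). Thra, Nr3c1, Hnf4g and Nr5a1 had no entry. The full palindrome TGACGTCA, which contains this core on both strands, was found only in Nr2e1 among the receptor genes and in 1.77% of all promoters. A match describes the letters and not a bound factor.

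In the Nr1i3 promoter, chr1:171213720-171213969 on the plus strand of the same build, the capitals mark CACGTG, the palindromic E-box read by clock and other basic helix-loop-helix proteins.
Nr1i3: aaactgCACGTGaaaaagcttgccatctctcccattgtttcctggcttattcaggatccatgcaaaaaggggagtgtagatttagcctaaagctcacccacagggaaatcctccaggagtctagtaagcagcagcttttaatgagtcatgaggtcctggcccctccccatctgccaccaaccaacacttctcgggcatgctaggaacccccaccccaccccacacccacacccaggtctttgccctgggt
This motif was in 6.86% of all promoters and in 5 of the 41 receptor promoters (Thrb, Rara, Nr1i3, Esr2 and Nr0b2). The core element of the receptors themselves, AGGTCA, searched on both strands, was in 15.8% of all promoters and in 10 of the 41 (Thrb, Rarg, Pparg, Nr1d2, Nr1h4, Rxra, Rxrg, Nr5a2, Nr6a1 and Nr0b1). Its extended form AAAGGTCA, which a single Nr4a protein can bind, was in 1.55% of all promoters and in Rxra and Rxrg among the 41.

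The Nr4a receptors are orphan receptors without a known natural ligand in their closed pocket, and their genes are transcribed within minutes of many stimuli. Nr4a1 (Nur77) read 236 in MHs and 2930 in Sox9+EpCAM- cells, a difference of 3.05, or 8.29-fold. Its probe lies at chr15:101105071-101105130 in mm9, the build of the array design. Nr4a2 (Nurr1) was not well above background in MHs (9.56) and read 839 in Sox9+EpCAM- cells, at least 20.1-fold higher (4.33), which became 2.89 with normexp, a model-based background correction. A second Nr4a2 probe read 6.37 in MHs, again not well above background, and 430 in Sox9+EpCAM- cells, at least 10.3-fold higher. Both Nr4a2 probes, at chr2:56960699-56960758 and chr2:56959637-56959696, thus gave bounds past 4-fold. Nr4a3 (Nor1) averaged 7.04 over 9 spots in MHs, not well above background, and 157 in Sox9+EpCAM- cells. Its difference was at least 1.91, or 3.77-fold, and 0.65 with the normexp correction. The scanner error of this difference was 1.44, as its MH reading lay in the background, and the SD of the difference over spots was 0.215.

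The probes of Nr4a3, Nr1d1 and Thra below are printed because their mm9 coordinates span more than 60 bases, 3187 for Nr4a3 (chr4:48080690-48083876), 503 for Nr1d1 (chr11:98630526-98631028) and 807 for Thra (chr11:98617475-98618281), so that they match spliced RNA and not a continuous stretch of the gene.
Nr4a3 probe: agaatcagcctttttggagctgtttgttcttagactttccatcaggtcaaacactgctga
Nr1d1 probe: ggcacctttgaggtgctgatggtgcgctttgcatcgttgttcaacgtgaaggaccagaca
Thra probe: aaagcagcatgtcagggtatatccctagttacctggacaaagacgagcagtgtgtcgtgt
None of the 72 probes had a run of 20 bases in common with a different gene's probe, whereas 7.19% of all probes on the array had one. The other probes were not placed in exons, introns or UTRs here.

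The Nr4a genes belong to the immediate early genes by their behaviour in many cells, and a list of 16 other immediate early genes was read beside them. On this list 14 of 16 were at least 4-fold higher in the sorted cells and none was at least 4-fold lower, with a median difference of 4.58 against -0.12 over all genes. Ier3 read 47 and 11000 (7.29), Fosb, a subunit of the transcription factor AP-1, 393 and 51800 (6.46), Junb, another subunit, 125 and 13000 (6.12), and Myc 350 and 32900 (5.97). The 2 genes under 4-fold were Jund at 1.67 and Dusp1, a phosphatase of MAP kinases, at 0.60. The values of Nr4a1, Nr4a2 and Nr4a3 lay within the range of this list. The sorted cells passed through FACS and the MHs through Percoll, and the part of cell isolation in the Nr4a values was not tested.

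**Figure D2:**
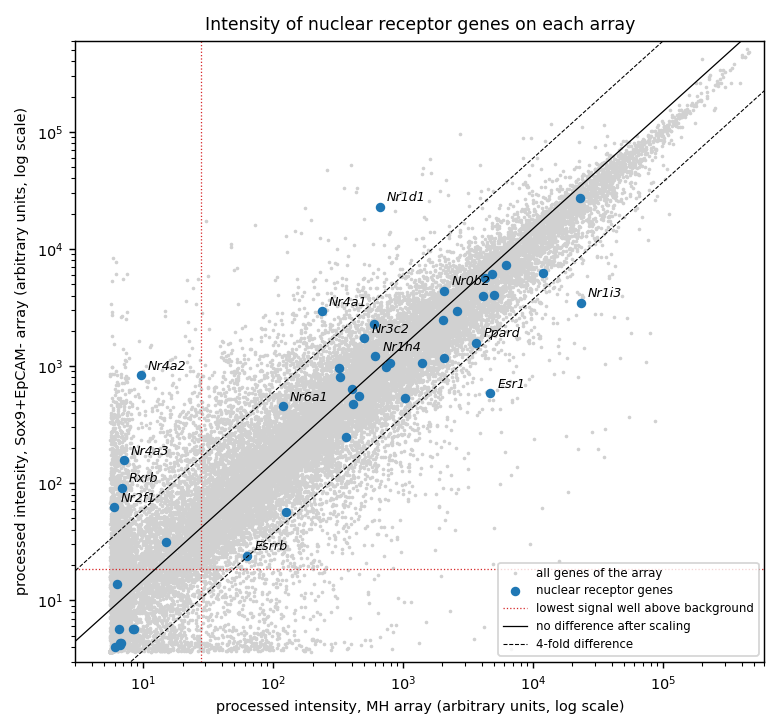
The plot sets the processed intensity of each gene on the Sox9+EpCAM- array (vertical, log scale) against that on the MH array (horizontal, log scale), with all genes in grey and the 45 receptor genes in blue. Dotted lines mark the lowest signal well above background on each array (27.8 and 18.4). Nr4a2, Nr4a3, Rxrb and Nr2f1 lie left of the MH line, and Nr1d1, Nr4a1, Nr1i3 and Esr1 lie outside the dashed 4-fold lines.

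The Rev-erb and ROR receptors compete for the same DNA element in clock and metabolic genes, where Rev-erbs, which bind heme, repress and RORs activate. Nr1d1 (Rev-erb alpha) read 660 in MHs and 22900 in Sox9+EpCAM- cells. The difference was 4.53, or 23.2-fold, the highest among the 32 genes measured on both arrays. Nr1d2 (Rev-erb beta) read 323 and 813, a difference of 0.75. Its second probe was not well above background in MHs (27.8) and read 45.6 in the sorted cells. The paralogue thus differed by 1.68-fold (1.02 on the log2 scale with scaling to Gapdh) where Nr1d1 differed by 23.2-fold. Rora read 6130 and 7370 (-0.32). A second Rora probe, at chr9:68511835-68511894 and far upstream of the first at chr9:69226774-69226833, read 9.17 in MHs, not well above background, and 132 in Sox9+EpCAM- cells, at least 3.17-fold higher. Rorb read 733 and 975 (-0.17) with one probe and 692 and 809 (-0.36) with the other.

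Among 14 clock genes around these receptors, none was shown to be at least 4-fold higher and 2 were at least 4-fold lower, against 5.98% and 5.96% of all genes. The median difference was 0.05, and the value of Npas2 is a lower bound that does not place it against 4-fold. The 2 lower genes were Cry1 (80.7 and 25.8, -2.23) and Per3 (971 and 343, -2.08), both repressors of the clock. At 2-fold, 4 clock genes were higher and 3 lower, against 15.2% and 17.9% of all genes. The 4 higher genes were the repressors Bhlhe40 (409 and 1960, 1.68), Bhlhe41 (178 and 623, 1.22) and Per1 (120 and 504, 1.49), and Npas2, a partner of Bmal1 that was not well above background in MHs (14.2) and read 84.2 in the sorted cells (at least 1.02). Arntl, which encodes the clock activator Bmal1 and is repressed by Rev-erbs, read 142 and 182 (-0.22). Dbp, an output gene, read 3690 and 5480 (-0.01). The large value of Nr1d1 thus had no counterpart of like size among the clock genes measured on both arrays. The hour at which the cells were taken was not given in the sources used here, and the part of the time of day was not tested. Nr1d1 overlaps Thra in the RefSeq annotation, and the array reads them with probes of opposite strands. The Thra probe nearer to Nr1d1, at chr11:98626356-98626415, read 452 and 855 (0.34), and the farther one, at chr11:98617475-98618281, read 599 and 2270 (1.34).

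The receptors for bile acids, oxysterols and foreign compounds divided by gene. Nr1i3 (CAR), the constitutive androstane receptor, which turns on drug-metabolizing enzymes, read 23200 in MHs and 3480 in Sox9+EpCAM- cells, a difference of -3.32, or 9.99-fold lower. Its second probe read 16500 and 3970 (-2.64), so that both probes, at chr1:173147776-173147835 and chr1:173148765-173148824, were past 4-fold. Nr1i2 (PXR), the pregnane X receptor with overlapping targets, read 4130 and 3950 (-0.65). Nr1h3 (LXR alpha), a sensor of oxysterols, read 11900 and 6200 (-1.52), and its second probe 5310 and 2490 (-1.68). Nr1h2 (LXR beta) read 404 and 639 (0.08). Nr1h4 (FXR), the bile acid receptor, read 606 and 1220 (0.43). Nr0b2 (SHP), a receptor without a DNA-binding domain that FXR induces and that represses bile acid synthesis, read 2070 and 4420 (0.51). Vdr, the vitamin D receptor, was not well above background on either array (6.24 and 13.9). Within this class CAR and LXR alpha were over 2-fold lower, and PXR, FXR and LXR beta lay within 2-fold.

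Known targets of these receptors were read from lists. For these and the lists below, 5.96% of all genes with a value were at least 4-fold lower and 5.98% at least 4-fold higher. Of 10 targets of PXR and CAR, 5 were at least 4-fold lower and none at least 4-fold higher, with a median of -1.84. Cyp3a11, the main drug-oxidizing P450 of its family in mouse liver, read 85800 and 337 (-8.58). Cyp2b10, the classical CAR target, read 4990 and 41.8 (-7.48), Cyp2b9 read 28400 and 272 (-7.29) and Cyp2c55 read 575 and 112 (-2.94). Alas1, which starts heme synthesis, read 8580 and 3210, at the edge of 4-fold. The P450 genes have close paralogues, and cross-hybridization of their probes was not tested. Of 6 FXR targets and bile acid genes, 2 were at least 4-fold lower and none at least 4-fold higher (median -0.95). This list mixes genes that FXR induces with genes of bile acid synthesis, which SHP represses. Its counts and median therefore have no single direction to be read against. Cyp7a1, the rate-limiting enzyme of bile acid synthesis, read 4910 in MHs and 20.4, not well above background, in the sorted cells, at least 361-fold lower. Cyp8b1, which makes cholic acid, read 4040 and 428 (-3.82). Both are genes of bile acid synthesis. The rest of the list went in both directions, with Abcb11 at -1.44, Fgf15 at -0.45, Slc10a1 at -0.43 and Abcb4 at 1.06. Of 9 LXR targets, 4 were at least 4-fold lower and none at least 4-fold higher (median -1.59). Scd1, a fatty acid desaturase, read 54200 and 370 (-7.78), and Abcg5, a sterol exporter, read 7730 and 2590 (-2.16). Mylip and Abcg1 were well above background in MHs only and at least 65.8-fold and 9.04-fold lower. In bulk RNA, fewer hepatocytes in the sorted sample and less RNA per hepatocyte cannot be told apart. Of the 16 hepatocyte markers, 4 were at least 4-fold lower, Cyp1a2 (330-fold), Cyp2e1 (44.2-fold), Tat (5.51-fold) and Ass1 (4.20-fold). Among the least changed, Hnf4a was 1.18-fold, Apoa1 1.46-fold, Pck1 1.62-fold and Alb 1.82-fold lower. Of the targets, Cyp3a11 was 381-fold, Cyp7a1 at least 361-fold, Scd1 219-fold and Cyp2b10 179-fold lower. The hepatocyte markers thus spanned a wide range that included falls of this size. The part of hepatocyte content in the target values was not tested.

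**Figure D3:**
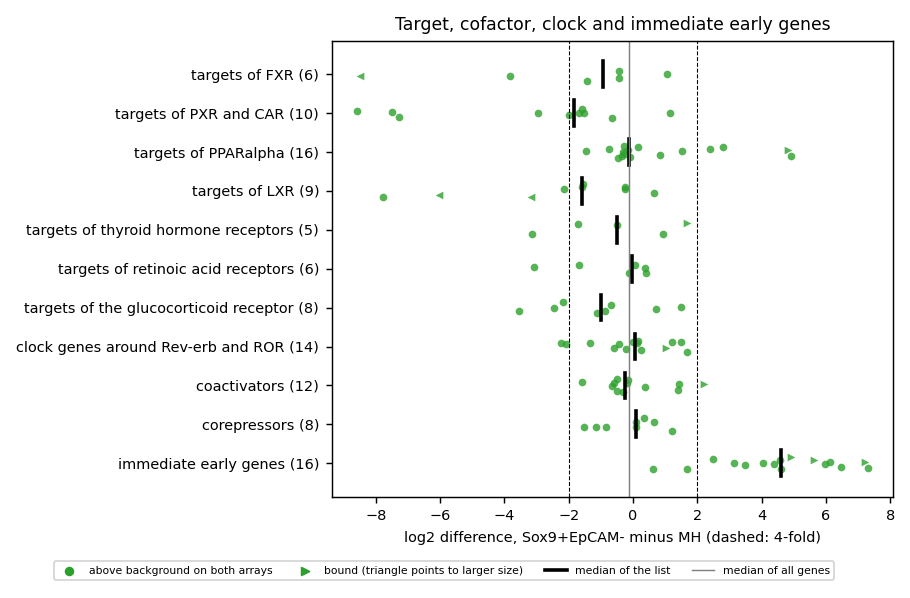
Each symbol is 1 gene of a list, placed by its log2 difference (Sox9+EpCAM- minus MH), with triangles for bounds pointing to the larger size. Black bars are list medians, the grey line is the median of all genes, and the number of genes with a value stands in brackets. The median of the immediate early genes lies to the right of the other medians, while single genes of the lists overlap. The extreme values on the left are P450 genes and Scd1.

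The 3 peroxisome proliferator-activated receptors, sensors of fatty acids, all read below 0. Ppard read 3640 and 1590 (-1.78). Ppara, the master regulator of hepatic fatty acid oxidation, read 4960 and 4010 (-0.89), and its other probes gave -1.58 (795 and 398) and -0.14 (462 and 626). Pparg, best known from fat cells, averaged 407 and 473 over 10 spots (-0.37, SD of the difference over spots 0.088). Of 16 targets of PPAR alpha, 4 were at least 4-fold higher and none at least 4-fold lower, with a median of -0.12, as over all genes. Pdk4, a kinase that holds back glucose oxidation, read 264 and 11900 (4.91), Acot1, a thioesterase, 638 and 6690 (2.81), and Angptl4, an inhibitor of lipoprotein lipase, 3950 and 31100 (2.39). Fgf21, a fasting hormone of the liver, was not well above background in MHs (7.71) and read 1180 in the sorted cells, at least 28.3-fold higher. The other 12 targets were between -1.47 and 1.53.

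The steroid hormone receptors held the lowest difference among the 36 receptor genes that had one. Esr1, the estrogen receptor alpha, read 4680 in MHs and 590 in Sox9+EpCAM- cells, a difference of -3.57, or 11.9-fold lower. A second probe read 2400 and 339 (-3.41). The third, spotted 10 times, averaged 201 and 58.0 (-2.37, SD of the difference over spots 0.168). The fourth was not well above background on either array (12.3 and 8.28). The 3 probes that measured Esr1, at chr10:5489352-5489411, chr10:5345046-5345105 and chr10:5343056-5343115, were therefore all past 4-fold. Xist and the Y-linked genes moved with this contrast, as given above, and their part in the Esr1 value was not tested. Esr2, the estrogen receptor beta, read 23000 and 27000 (-0.35) with its only probe. Whether this bright probe also reads other RNA was not tested, and Esr2 overlaps Gm7862 in the RefSeq annotation. Nr3c1, the glucocorticoid receptor, read 2040 and 1180 (-1.37), and its second probe 569 and 310 (-1.46). Nr3c2, the mineralocorticoid receptor, read 500 and 1730 (1.21), so that the pair differed in opposite directions by over 2-fold each. Pgr, the progesterone receptor, was not well above background with any of its 3 probes.

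Of 8 glucocorticoid receptor targets, 3 were at least 4-fold lower and none at least 4-fold higher (median -0.99). Tsc22d3 (GILZ) read 267 and 34.2 (-3.55), Tat, a tyrosine-degrading enzyme also on the hepatocyte list, 68800 and 18700 (-2.46), and Fkbp5, a chaperone partner of the receptor, 2160 and 713 (-2.18). The estrogen-related receptors, which act on mitochondrial genes without a hormone, were dim. Esrra read 124 and 57.2 (-1.70) and Esrrb 62.6 and 24.0 (-1.97, 3.91-fold lower). Esrrb passed 4-fold with quantile normalization (-2.22) and in the authors' deposited table (-2.14) and came to -1.15 with normexp, and its second probe was not well above background on either array. Esrra was 3.25-fold lower, and Esrrg was not well above background with either probe.

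The thyroid hormone and retinoic acid receptors were read by probes that did not always go the same way. Both probes of Thra, described above, were above 0. Thrb, the main thyroid hormone receptor of the liver, read 1390 and 1070 (-0.96), whereas its second probe read 9.66 in MHs, not well above background, and 92.5 in the sorted cells, at least 2.22-fold higher. The Thrb value thus changed sign with the probe. Rara read 359 and 247 (-1.12, and -0.86 with scaling to Gapdh). Rarb, itself induced by retinoic acid in many cells, read 320 and 955 (0.99), but a second probe read 342 and 488 (-0.07), and the third was not well above background on either array. Rarg was not well above background (6.02 and 3.97). Of 5 thyroid hormone targets, 1 was at least 4-fold lower, Thrsp (42500 and 7160, -3.15), a gene of fat synthesis, and the median was -0.51. Of 6 retinoic acid targets, 1 was at least 4-fold lower, Cyp26a1 (2660 and 467, -3.09), which breaks down retinoic acid, and the median was -0.04.

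Of the retinoid X receptors, the shared partners, Rxra and Rxrg lay under 4-fold, and Rxrb had a lower bound that does not place it against 4-fold. Rxra, the main form in hepatocytes, read 4230 and 5610 (-0.18). Its dim second probe read 77.3 and 91.7 (-0.34). Rxrg read 453 and 554 (-0.29) with one probe and 298 and 185 (-1.27) with the other. Rxrb was not well above background in MHs (6.83) and read 91.5 in Sox9+EpCAM- cells, at least 2.20-fold higher, a difference of 1.14 that became 0.26 with normexp.

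**Figure D4:**
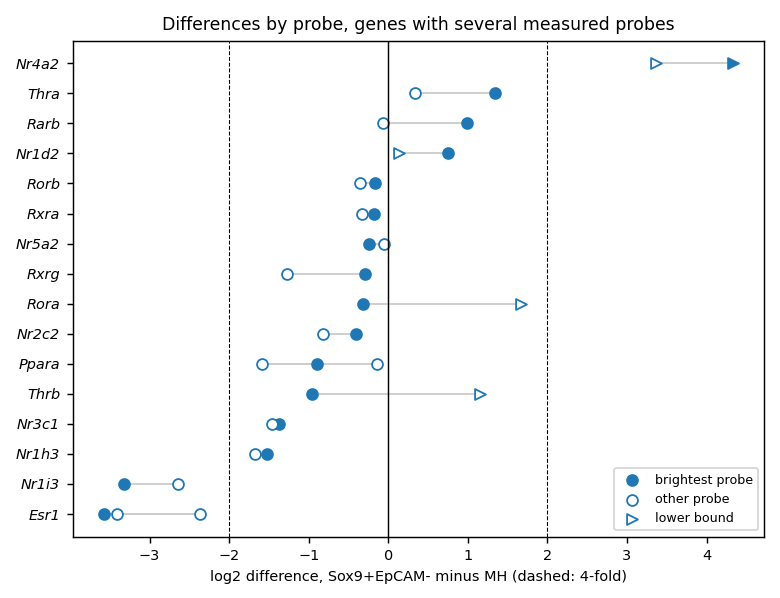
Each row is 1 receptor gene with several probes that gave a value, and each symbol 1 probe placed by its log2 difference (Sox9+EpCAM- minus MH). Filled symbols are the brightest probe and triangles are lower bounds. The probes of Esr1, Nr1i3 and Nr4a2 lie on one side of 0 past the dashed 4-fold lines, while those of Thrb, Rora and Rarb lie on both sides of 0.

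Among the orphan receptors, Nr6a1, known from germ cells and the early embryo, read 118 and 454 (1.36, and 0.95 with normexp). Nr5a2 (LRH-1), a regulator of bile acid and cholesterol genes, read 4830 and 6140 (-0.24) and 2080 and 3010 (-0.05) with its 2 probes. Nr5a1 (SF-1), best known from steroid-making tissues, read 2010 and 2460 (-0.29). Nr2f6 read 1030 and 536 (-1.53). Nr2c1 (TR2) read 785 and 1070 (-0.14), and Nr2c2 (TR4) read 2600 and 2930 (-0.41) and, with a second probe, 196 and 166 (-0.82). Nr2f1 (COUP-TFI) was not well above background in MHs (5.91) and read 62.7 in Sox9+EpCAM- cells, at least 1.51-fold higher. Apart from Nr6a1 and Nr2f6, those measured on both arrays lay within 2-fold, and Nr2f1 was not placed by its bound. Hnf4g read 15, not well above background, and 31.6, which left no fold. Nr2f2 (6.57 and 4.29), Nr2e1, Nr2e3 and Nr0b1 were not well above background on either array.

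Over the 12 receptor genes with several probes measured on both arrays, the widest gap between the probes of a gene had a median of 0.55 and ran from 0.09 to 1.44 on the log2 scale. Only for Rarb did such probes lie on opposite sides of 0, and Thrb and Rora did so against a bound. A difference of 1 on this scale between a receptor and its paralogue was thus within what the probes of 1 gene could show. In the RefSeq annotation Nr1i3 overlaps Tomm40l, Nr1h3 overlaps Acp2, Nr2c2 overlaps Mrps25 and Esrra overlaps Trmt112, and whether a probe lies in a shared stretch was not tested.

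The cofactors through which the receptors act were read last. Of 12 coactivators, 1 was at least 4-fold higher, Ep300, a histone acetyltransferase that was not well above background in MHs (25.4) and read 192 in the sorted cells (at least 4.61-fold), and none was at least 4-fold lower (median -0.26). Of 8 corepressors, none was past 4-fold in either direction (median 0.09). Ppargc1a, the coactivator PGC-1 alpha, read 1250 and 1230 (-0.61), and Ncor1, the corepressor used by Rev-erbs and thyroid hormone receptors, 4180 and 3520 (-0.83). Markers of other liver cells were read as well, and their summed levels are given as multiples of each array's 75th percentile. Of 15 cholangiocyte markers, 3 were at least 4-fold higher in the sorted cells and none at least 4-fold lower, with a median of 0.42. Their sum was 4.98 in MHs and 55.0 in the sorted cells, of which Spp1 made 42.3, and without Spp1 the sums were 4.63 and 12.6. Of 13 stellate cell and fibroblast markers with a value, 6 were at least 4-fold higher and 1 lower (median 1.84, sums 12.9 and 55.5, and 12.7 and 35.5 without Col3a1), Pdgfrb being not well above background on either array. Of 13 leukocyte and Kupffer cell markers with a value, 1 was at least 4-fold higher and 7 lower (median -2.64, sums 45.5 and 16.3, and 29.0 and 4.0 without Csf1r). Of 11 endothelial markers with a value, none was at least 4-fold higher and 5 were lower (median -1.99, sums 9.96 and 3.48). Of 4 erythroid markers with a value, 1 was at least 4-fold higher and 2 were lower (median -0.99). Their sums were 4.59 and 4.16, and 3.90 and 0.585 without Tfrc, the transferrin receptor. The part of these cells in the receptor values was not tested.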

How the data were processed

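The 2 arrays were 1-colour Agilent arrays with Cy3-labelled total RNA, extracted with an RNeasy kit, and labelling and hybridization were done by a service provider. The authors deposited the scanner output of Feature Extraction 10.7.3.1, from which the background-corrected processed intensity of each spot was used, and a table of each array's values as a ratio to a centre near 1. Control spots and outlier spots were left out, spots of a probe were averaged, each array was divided by its 75th percentile, and log2 differences were taken from the brightest probe of each gene with Python 3.11.15 (pandas 2.3.3, numpy 2.4.6) and limma 3.58.1 in R 4.3.3 for the alternatives. A signal not well above background on 1 array gave a bound. With 1 array per group no test was run, and the precision is limited by that number. The calculation was tested on simulated data.

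The 45 genes and the lists were chosen with earlier results of these data known. Every receptor gene is named. From a list up to 4 genes at least 4-fold different in each direction are named, by size among those measured on both arrays. Genes a statement turns on were added, as were Cyp7a1, Mylip, Abcg1, Fgf21 and Ep300, which had only a bound. The marker lists of other liver cells are given mostly by counts and sums instead. Jund, Dusp1, Alas1, Abcb11, Fgf15, Slc10a1, Abcb4, Arntl, Dbp, Bhlhe40, Bhlhe41, Per1, Npas2, Hnf4a, Apoa1, Pck1, Alb, Ppargc1a, Ncor1 and the promoters and probes printed were chosen after their values were seen. Of 72 probe accessions, 66 matched RefSeq, all to the same symbol. Alternatives were normexp background correction (offset 50), other scalings, the deposited table, other probe rules, bounds and thresholds of 2-fold and 10-fold.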

Additional observations from a re-analysis of the deposited data

How the results depend on the processing

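Nr1d1, Nr4a1, Nr4a2, Esr1 and Nr1i3 stayed at least 4-fold different under every alternative run, except that Nr4a2 had no value where only genes above background on both arrays were kept. Without bounds, 6 receptor genes were at least 4-fold higher, Rxrb (3.16), Nr2f1 (2.82) and Nr4a3 (3.90) being added, by construction of that setting. Nr4a3 also passed with scaling to Gapdh (2.18). Normexp background correction made 4 fold changes smaller by over 1.5 times, those of Nr4a2 (2.89), Nr4a3 (0.65), Rxrb (0.26) and Esrrb (-1.15). With normexp Nr4a3, Rxrb and Nr6a1 were no longer 2-fold higher, which left 5 higher and 9 lower. Over the other alternatives the counts at 2-fold ran from 5 to 10 higher and from 8 to 11 lower, with Rara lost with Gapdh, Rxrb with quantiles and in the deposited table, and Thra with the median of all probes. Past 2-fold came Nr1d2 and Rarb with Gapdh, Ppara and Thrb in the deposited table, Ppara, Rora, Rxrg and Thrb with the probe of largest difference, and Nr2f1 without bounds. At a threshold of 2-fold the counts were 8 higher and 9 lower, and at 10-fold 2 higher and 1 lower. The median of the receptor genes ran from -0.44 in the deposited table to 0.0022 with scaling to Gapdh, where its sign turned. These 2 settings moved the median of all genes by -0.19 and 0.27. With all probes of a gene averaged by their median, the signs of Thrb and Rora turned. No paired analysis was possible because the groups had 1 array each, and for the same reason no array could be left out and no slide fitted as a block. Depth of signal limits the 5 receptor genes above background on 1 array and the 8 above it on neither.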
